A study of Medicago truncatula with 16 samples.

Results

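The data are the 4 RNA-Seq libraries of untreated *Medicago truncatula* radicles, 2 replicates of R5, cut from germinating seeds of the cultivar A17 with a 5 mm radicle, and 2 replicates of R1, cut from seeds with a 1 mm radicle. They were taken by the sample labels from a series of 16 libraries, and every gene of the count table was considered. R5 and R1 differed in radicle length only as far as the labels say, since neither had been placed in polyethylene glycol (PEG), and no time since imbibition was given. Seeds were germinated on wet paper at 20 °C under a light and dark cycle, and each replicate pooled radicles of many seeds (about 100 in the protocol, 50 in the description of the series). The sources call these radicles both desiccated and freshly harvested, so whether they had been dried before extraction was not settled. For comparison, R5P and R1P were radicles of the same lengths from seeds held for 3 days in PEG at -1.7 MPa and 10 °C in the dark, and C5 and C1 were cotyledons of untreated seeds with 5 mm and 1 mm radicles, with 2 replicates in each of these groups. The effects of PEG, cold and dark cannot be told apart in R5P and R1P.

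A radicle that has just left the seed coat elongates by expansion of cells that were laid down in the embryo, and cell division, root hairs, xylem and the endodermis follow as it becomes a seedling root. In the same window the seed programme is shut off. Its best known regulators in *Arabidopsis* are ABSCISIC ACID INSENSITIVE 3 (ABI3), ABI4 and ABI5, and its products include late embryogenesis abundant (LEA) proteins, oleosins of the oil bodies, and raffinose family sugars. Cell walls are loosened and remodelled during elongation by enzymes that cut xyloglucan and pectin, and gibberellin, auxin and abscisic acid set the pace of growth.

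The deposited values were read counts estimated per gene, and they summed to 22912292 and 23001632 in R5 and to 22857525 and 23257652 in R1. Levels are given as CPM (edgeR, each library scaled to the same total and for composition), and a library with 3 or fewer counts of a gene was taken as at the floor, which lay between 0.11 and 0.122 CPM in these 4 libraries. The log2 levels of the replicates correlated with a Pearson r of 0.991 across genes in R5 and 0.989 in R1, where genes are not independent replicates. In R5P, r was lower, at 0.977, and in R1P it was 0.99. Both groups share in the estimate of spread behind the calls. Of the marker lists of other tissues, photosynthesis genes summed to 22.9 and 19.2 CPM in R5 and 6.51 and 8.88 CPM in R1, against 145 and 130 CPM in C5 and 100 and 97.5 CPM in C1. Class III peroxidases, abundant in roots, summed to 1287 and 1354 CPM in R5 and 1697 and 1441 CPM in R1, and to between 130 and 338 CPM in C5 and C1. Genes of the Casparian strip, suberin and lignin list did not separate the tissues, at 257 and 264 CPM in R5 and 702 and 730 CPM in R1, against 334 and 269 CPM in C5 and 407 and 503 CPM in C1.

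Many more genes were higher than lower in the longer radicles. Of 23793 genes tested, 4184 (17.6%) were called between R5 and R1, at an adjusted p under 0.05 in edgeR's quasi-likelihood test and a fold change over 2. Of these, 3285 were higher in R5 (13.8%) and 899 were lower (3.78%), so that 78.5% of the calls were rises. With the adjusted p alone, 4305 genes were higher (18.1%) and 3560 lower (15%), so that the surplus of rises was mostly one of large changes. Over all genes tested, the log2 fold change had a median of -0.07 and quartiles of -0.47 and 0.62.

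**Figure D1:**
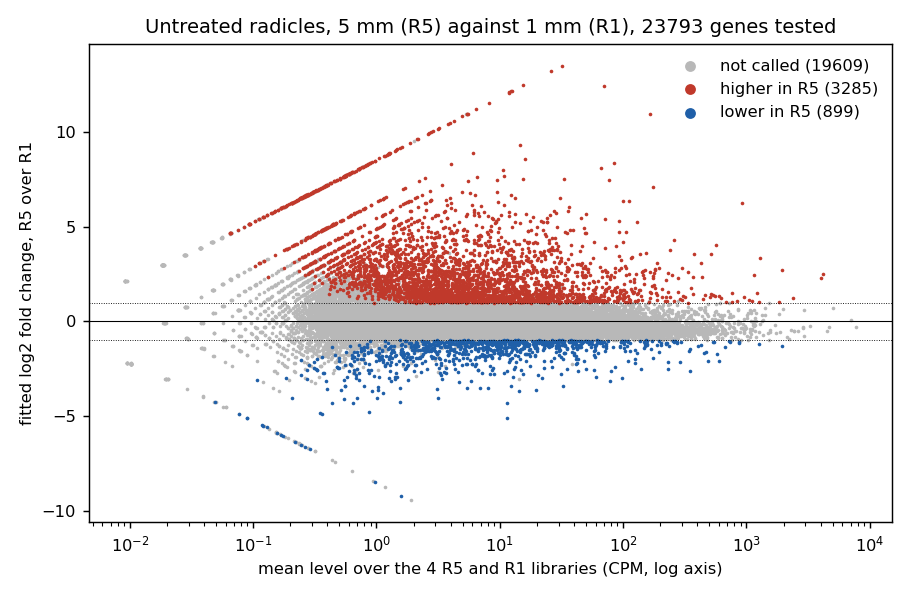
The fitted log2 fold change of R5 over R1 (vertical axis) against the mean level over the 4 libraries in CPM (log axis), 1 point for each of 23793 genes. The 3285 genes higher in R5 reach far larger fold changes than the 899 lower genes, and the slanting rows at the left and top are genes with 0 or a few counts in one of the groups, whose fitted values are not bounds.

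The genes that rose were mostly silent or weak in R1, whereas those that fell were mostly of moderate level there. The 3285 risers had a median of 5.66 CPM in R5 and 1.13 CPM in R1, and their median change was 2.32 on the log2 scale (2.16 with the genes at the floor set to their bounds). Of them, 1910 changed by more than 4-fold and 1140 by more than 8-fold, and 897 had a mean of 10 CPM or more. The 899 fallers had a median of 3.99 CPM in R5 and 11.4 CPM in R1, their median change was -1.41 on the log2 scale, and 201 of them fell by more than 4-fold. Among the risers, 562 had at most 3 counts in each R1 library. Of the fallers, 37 had at most 3 counts in each R5 library. The levels of these bulk samples do not tell fewer cells of a type from less RNA per cell.

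Taken as a sum, the risers made up 14.5 and 14.4% of the CPM of all tested genes in R5 and 3.6 and 3.72% in R1. The fallers made up 2.06 and 2.11% in R5 and 5.29 and 4.86% in R1. Choice by the same libraries fixes these directions. The libraries of PEG-treated seeds were not in the contrast, but they shared in the filter, the scaling and the estimate of spread behind the calls. There, the risers held 15.4 and 13.9% in R5P and 5.76 and 6.04% in R1P, and the fallers 5.33 and 5.27% in R5P and 8.7 and 8.86% in R1P. The order of 5 mm and 1 mm radicles was thus the same for both sums after PEG.

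**Figure D2:**
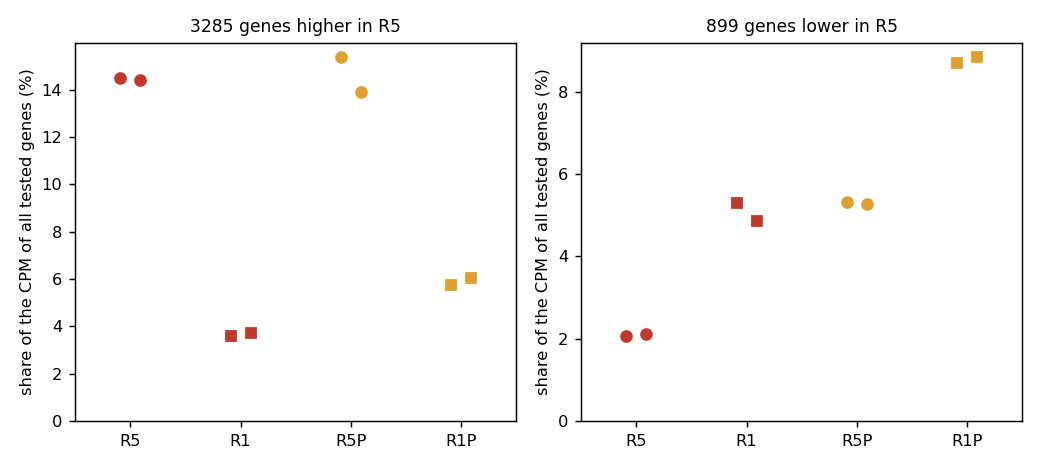
The share of the CPM of all tested genes, in %, held by the 3285 genes higher in R5 (left) and the 899 genes lower in R5 (right), 1 point per library, for R5, R1, R5P and R1P. The genes were chosen on the contrast of R5 and R1, in a model that also held R5P and R1P. R5P lies above R1P at the left and below it at the right.

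Annotation limited what could be said of the risers. Gene annotations came from the supplementary tables of the study, which covered 4475 of the tested genes (18.8%), most of them picked there for a change after PEG in 1 mm radicles. They covered 30.7% of the fallers and 6.7% of the risers. Of the annotated genes tested, 4.92% were called higher in R5 and 6.17% lower, and the counts of the lists picked by annotation below are to be read against these shares. As the study had chosen the annotated genes on these libraries, the direction of a list is not independent evidence.

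Of the 3 best known regulators of the seed programme, *MtABI3* and *MtABI4* fell, and *MtABI5* was not called. *MtABI3* (MtrunA17_Chr7g0237841), a B3 domain factor that in *Arabidopsis* drives seed maturation, had 0.719 and 0.589 CPM in R5 and 22.8 and 21.9 CPM in R1, a log2 fold change of -5.09 ± 0.20 (SE; adjusted p = 4.47e-07, edgeR). *MtABI4* (MtrunA17_Chr5g0437371), an AP2 factor of abscisic acid and sugar signalling in *Arabidopsis*, had 0.681 and 1.07 CPM in R5 and 10.8 and 9.08 CPM in R1 (-3.50 ± 0.29, adjusted p = 2.05e-05, edgeR). Neither gene overlapped between the groups, which was also so for 72.5% of all genes tested. *MtABI5* (MtrunA17_Chr7g0266211), a bZIP factor that activates LEA genes in *Arabidopsis*, had 29.4 and 29.8 CPM in R5 and 49.7 and 59.1 CPM in R1. Its log2 fold change of -0.88 ± 0.18 had an adjusted p of 0.00473 in edgeR but missed the 2-fold limit, so that the 3 regulators differed in the size of their change. The gene for an abscisic acid 8'-hydroxylase (MtrunA17_Chr8g0369791), which inactivates the hormone, also fell (12.7 and 14.1 CPM in R5, 30.8 and 33 CPM in R1, log2 fold change -1.25 ± 0.16). It was the one called of 3 tested genes for abscisic acid enzymes and receptors.

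Members of the WUSCHEL-related homeobox (WOX) family, which act in stem cell and organ initiation, moved in both directions. *MtWOX9b* (MtrunA17_Chr2g0283141) had 6.13 and 3.68 CPM in R5 and 40.2 and 38.5 CPM in R1 (log2 fold change -3.005 ± 0.34). *MtWOX11* (MtrunA17_Chr7g0254251), whose rice and *Arabidopsis* counterparts act in the start of adventitious roots, had 3.52 and 2.8 CPM in R5 and 20.2 and 19 CPM in R1 (-2.63 ± 0.19). A further WOX gene, MtrunA17_Chr8g0346251, rose instead, at 42.2 and 51.7 CPM in R5 and 11.4 and 11.9 CPM in R1 (2.01 ± 0.29). In each of the 3 genes the R5 libraries lay wholly on one side of the R1 libraries, as in 72.5% of all genes tested.

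Of 419 annotated transcription factor genes, 34 fell, 16 rose and 369 were not called, with a list median of -0.21 (log2) against -0.07 over all genes tested. Losses beside those above included a MYB-HB-like gene (MtrunA17_Chr1g0181771), at 3.9 and 4.71 CPM in R5 and 22.7 and 28.4 CPM in R1 (-2.57 ± 0.23). A Trihelix gene (MtrunA17_Chr1g0179561) had 27.8 and 26.5 CPM in R5 and 161 and 130 CPM in R1 (-2.42 ± 0.30), and an AP2-EREBP gene (MtrunA17_Chr1g0195151) had 74.6 and 69.3 CPM in R5 and 301 and 256 CPM in R1 (-1.95 ± 0.16). These 2 genes were chosen after their values were seen. Among the factor genes of 10 CPM or more, those that rose included a gene annotated as a WD40-like factor (MtrunA17_Chr4g0034121; 37.5 and 40.5 CPM in R5, 1.59 and 0.881 CPM in R1, log2 fold change 4.98 ± 0.26) and a further MYB-HB-like gene (MtrunA17_Chr7g0228891; 35.2 and 40.4 CPM in R5, 1.59 and 1.49 CPM in R1, 4.61 ± 0.22). MYB factors form a large family with roles as unlike as root hair patterning and flavonoid synthesis, so the annotation gives no role for either. An AP2-EREBP gene (MtrunA17_Chr1g0153151) had 14 and 15.2 CPM in R5 and 5.01 and 3.94 CPM in R1 (1.71 ± 0.19). A bHLH gene (MtrunA17_Chr6g0474681), also chosen after its values were seen, had 5 and 4.78 CPM in R5, with 0 and 0.0383 CPM in R1. Its fitted log2 fold change of 7.61 ± 0.95 was the highest of the list, but it rests on 3 or fewer counts in each R1 library and is no bound.

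LEA genes, whose products protect dry embryos, fell in the longer radicle in 9 of 20 cases and rose in 3, with a list median of -0.78 (log2). Among those that fell, a dehydrin (MtrunA17_Chr8g0392291) had 17 and 17.6 CPM in R5 and 85.4 and 51.8 CPM in R1 (-1.98 ± 0.24), and a member of the LEA_3 group (MtrunA17_Chr4g0067471) had 8.21 and 6.22 CPM in R5 and 22.6 and 16.9 CPM in R1 (-1.45 ± 0.22). The others were at low levels. *MtEM6* (MtrunA17_Chr4g0007001) had 5.03 and 3.09 CPM in R5 and 15.1 and 8.23 CPM in R1, and *MtPM25* (MtrunA17_Chr1g0205331) had 0.606 and 0.294 CPM in R5 and 0.977 and 2.37 CPM in R1. A LEA_2 gene (MtrunA17_Chr8g0348171) had 0.341 and 0.626 CPM in R5 and 1.38 and 2.07 CPM in R1. The 3 LEA genes that rose were the dehydrin HIRD11 (MtrunA17_Chr7g0253841; 470 and 406 CPM in R5, 174 and 172 CPM in R1, log2 fold change 1.34 ± 0.27), another dehydrin (MtrunA17_Chr6g0484671; 67.9 and 56.7 CPM in R5, 10.8 and 18.5 CPM in R1, 2.08 ± 0.31) and another LEA_2 gene (MtrunA17_Chr8g0348161; 13.2 and 15.4 CPM in R5, 5.78 and 5.63 CPM in R1, 1.33 ± 0.17). Because HIRD11 was the most abundant member, the summed level of the list was higher in R5, at 728 and 616 CPM, than in R1, at 475 and 464 CPM, although its median was negative. Of the 9 calls, 4 held whichever R5 or R1 library was left out. That of *MtEM6* was lost without R5 replicate 2 or R1 replicate 1, and that of *MtPM25* without R5 replicate 2 or R1 replicate 2.

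Oil body genes were close to absent from both stages, with a sum of 7.27 and 6.11 CPM over 7 genes in R5 and 12 and 17.4 CPM in R1. Of the 7 genes, 3 were called lower, all for oleosins, which coat the oil bodies of the embryo. The most abundant (MtrunA17_Chr7g0227501) had 1.63 and 1.36 CPM in R5 and 6.11 and 7.97 CPM in R1 (log2 fold change -2.23 ± 0.26), and a second (MtrunA17_Chr3g0139191) had 0.151 and 0.405 CPM in R5 and 1.51 and 3.02 CPM in R1 (-3.001 ± 0.43). The third (MtrunA17_Chr2g0307331) had no count in R5 and 0.163 and 0.192 CPM in R1, at least 1.43-fold lower in R5 against the floor of 3 counts in each library. Orthologues of the *Arabidopsis* oleosins OLEO1 (MtrunA17_Chr1g0196841; 0.908 and 0.699 CPM in R5, 0.977 and 2.76 CPM in R1) and OLEO4 (MtrunA17_Chr6g0449621; 2.69 and 2.5 CPM in R5, 1.59 and 1.92 CPM in R1) were not called. Nor was the orthologue of the diacylglycerol acyltransferase TAG1 (MtrunA17_Chr2g0299671), which makes storage oil, at 16.2 and 14.1 CPM in R5 and 16.9 and 21.1 CPM in R1. Of 8 seed storage protein genes, 0 were called in edgeR or DESeq2 (1 was higher and 1 lower at an unadjusted p under 0.05, of which the higher one also passed the adjusted p in edgeR). Their sum was 196 and 210 CPM in R5 and 136 and 127 CPM in R1.

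Raffinose family sugars accumulate in legume embryos as they dry. Of 7 genes for their enzymes, 3 fell and none rose, with a list median of -0.29 (log2). A galactinol-sucrose galactosyltransferase, which makes raffinose (MtrunA17_Chr7g0257731), had 180 and 166 CPM in R5 and 524 and 510 CPM in R1 (-1.58 ± 0.14). The gene with the next identifier listed here (MtrunA17_Chr7g0257741), of the same annotation, had 34.3 and 38.1 CPM in R5 and 104 and 110 CPM in R1 (-1.56 ± 0.15). The third (MtrunA17_Chr4g0058701) was rare, at 0.151 and 0.0368 CPM in R5 and 0.488 and 0.306 CPM in R1, and its call was lost without R5 replicate 2, R1 replicate 1 or R1 replicate 2. Of 3 tested genes in the list of defensins and other small secreted peptides, 1 fell and 2 were not called, with a list median of -0.35 (log2). The one that fell, *MtPDF32* (MtrunA17_Chr2g0317741) had 0.0379 and 0.147 CPM in R5 and 0.977 and 1.07 CPM in R1. Outside that list, 2 further genes of defensin name were called lower. *MtPDF33* (MtrunA17_Chr2g0317751) had 0.719 and 0.662 CPM in R5 and 4.19 and 2.72 CPM in R1 (-2.31 ± 0.34). *MtPDF51* (MtrunA17_Chr8g0385301), annotated as an oxidoreductase in the tables, had 0.0379 and 0.258 CPM in R5 and 0.366 and 1.3 CPM in R1. Its call, at an adjusted p of 0.0473 in edgeR, was lost without R5 replicate 1, R5 replicate 2 or R1 replicate 2, and that of *MtPDF32* without R5 replicate 1.

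The largest falls of annotated genes of 10 CPM or more included 2 enzymes that act on fatty acids, chosen by that rank and not by a list of lipid genes. A stearoyl-acyl carrier protein desaturase (MtrunA17_Chr1g0159321), which makes oleate in plastids, had 23.4 and 20.4 CPM in R5 and 183 and 163 CPM in R1 (log2 fold change -2.98 ± 0.18, adjusted p = 3.06e-06, edgeR). A very-long-chain 3-oxoacyl-CoA synthase (MtrunA17_Chr6g0480561), of the family that starts the elongation of fatty acids for waxes and suberin, had 14.6 and 14.9 CPM in R5 and 94.6 and 75.9 CPM in R1 (-2.53 ± 0.18). Among 13 lipid transfer protein genes, 2 fell and none rose. *MtnsLTP20* (MtrunA17_Chr4g0012891) had 75.7 and 86 CPM in R5 and 238 and 194 CPM in R1 (-1.42 ± 0.25). *MtnsLTP32* (MtrunA17_Chr7g0244661) had no count in R5 and 0.244 and 0.46 CPM in R1, at least 2.15-fold lower in R5. The list as a whole kept a median of 0.20 and a higher sum in R5 (6093 and 5772 CPM) than in R1 (4644 and 4766 CPM). Other abundant genes with large falls were a AAA-type ATPase (MtrunA17_Chr8g0387641; 66.7 and 72.6 CPM in R5, 390 and 396 CPM in R1, -2.50 ± 0.14) and a gene without annotation (MtrunA17_Chr5g0406631; 0.795 and 1.44 CPM in R5, 24.9 and 18.9 CPM in R1, -4.28 ± 0.32).

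**Figure D3:**
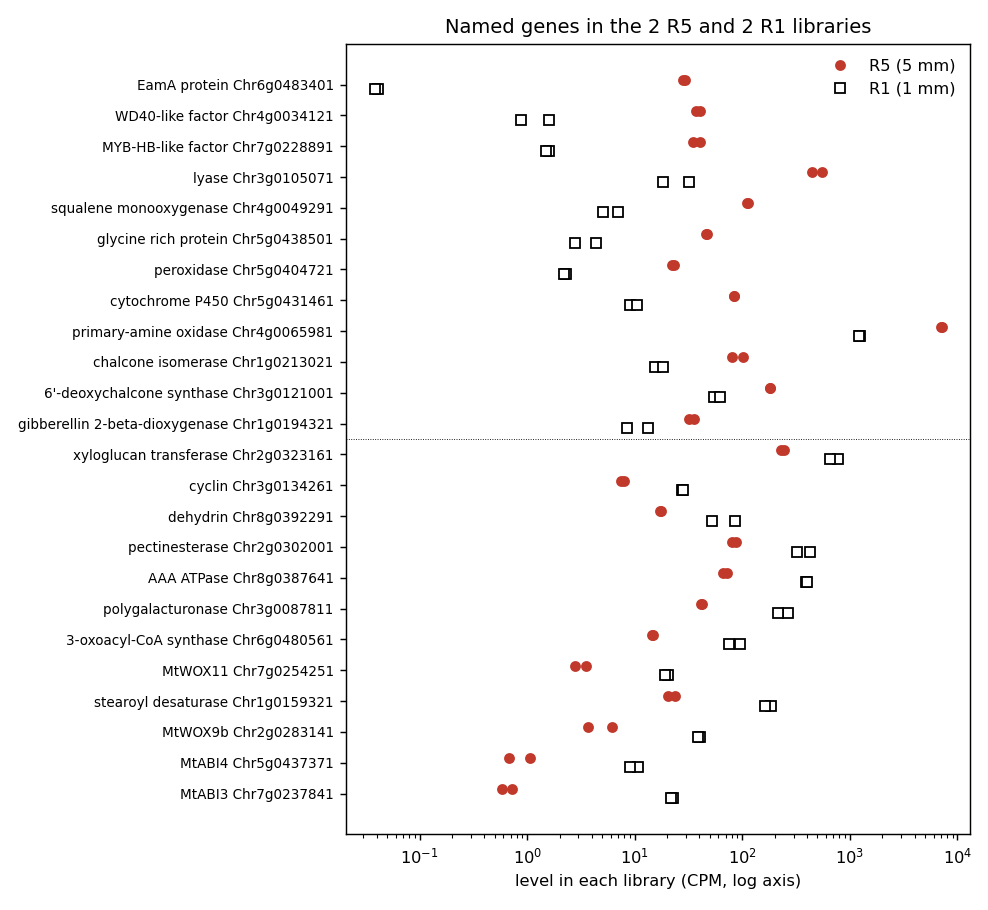
The level of 24 genes named in the text in each of the 2 R5 libraries (filled circles) and the 2 R1 libraries (open squares), in CPM on a log axis, with the genes that rose above the dotted line and those that fell below it. The groups do not overlap for any of these genes, from *MtABI3* at 0.589 to 0.719 CPM in R5 and 21.9 to 22.8 CPM in R1 up to the primary-amine oxidase at 7063 and 7200 CPM in R5 and 1240 and 1223 CPM in R1. That was a condition for choosing the largest rises and falls, and 72.5% of all genes tested did not overlap either.

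Enzymes that cut and rejoin xyloglucan, the polymer that ties cellulose microfibrils together, made up the whole cell wall loosening list. Of its 7 tested xyloglucan:xyloglucosyl transferases, 4 fell and 3 were not called, with a list median of -1.28 (log2). The most abundant (MtrunA17_Chr2g0323161) had 227 and 242 CPM in R5 and 771 and 660 CPM in R1 (-1.61 ± 0.14, adjusted p = 2.72e-05, edgeR). The 3 others that fell, with close identifiers, were at lower levels, of which MtrunA17_Chr4g0072641 had 3.41 and 2.98 CPM in R5 and 11.2 and 12.8 CPM in R1, and MtrunA17_Chr4g0072671 had 5.18 and 6.7 CPM in R5 and 14.4 and 14.4 CPM in R1. MtrunA17_Chr4g0072631 had 2.01 and 2.28 CPM in R5 and 4.8 and 7.81 CPM in R1. Counts of MtrunA17_Chr4g0072671 were not whole in all 16 libraries, so part of its reads was shared with similar transcripts. The 3 genes not called had positive changes of 0.30 to 0.74 on the log2 scale, and the highest of these (MtrunA17_Chr4g0072601) had 1.93 and 2.43 CPM in R5 and 1.3 and 1.3 CPM in R1, with an adjusted p of 0.0237 in edgeR but under 2-fold. The call of MtrunA17_Chr4g0072631 was lost without R5 replicate 1 or R1 replicate 2.

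Of 17 genes for pectin enzymes, 3 fell and none rose. An endo-polygalacturonase (MtrunA17_Chr3g0087811), which cuts the pectin backbone, had 41 and 42.4 CPM in R5 and 264 and 215 CPM in R1 (log2 fold change -2.52 ± 0.16). Also, 2 pectinesterases, which remove methyl groups from pectin, fell too. MtrunA17_Chr2g0302001 had 80 and 87.5 CPM in R5 and 429 and 321 CPM in R1 (-2.16 ± 0.20), and MtrunA17_Chr3g0079381 had 60 and 46.7 CPM in R5 and 166 and 107 CPM in R1 (-1.35 ± 0.21). The list median of -0.02 was near zero and turned positive under other scalings. A laccase (MtrunA17_Chr2g0322441), of a family that oxidises lignin precursors, had 217 and 222 CPM in R5 and 665 and 706 CPM in R1 (-1.64 ± 0.13). It was the one called of 3 tested genes in the Casparian strip, suberin and lignin list, whose median was 0.38 (log2). Among the 17 genes of cellulose and callose synthesis, 0 were called in edgeR or DESeq2. With the adjusted p alone in edgeR, 4 were lower and 0 higher, against 16.8% and 7.44% of the annotated genes. A further 2 were higher at an unadjusted p under 0.05. An extensin gene (MtrunA17_Chr1g0161771) went the other way. Extensins are structural glycoproteins of the wall. This gene had 599 and 329 CPM in R5 and 121 and 67.1 CPM in R1 (2.31 ± 0.43, adjusted p = 0.00319, edgeR), with counts that were not whole in all 16 libraries. It was the one called of 6 tested arabinogalactan and extensin genes, whose list median was 0.06 (log2).

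Genes of growth by division and protein synthesis showed small shifts. Of 9 cyclin genes, 2 fell. One (MtrunA17_Chr3g0134261) had 7.49 and 7.95 CPM in R5 and 27.2 and 28.1 CPM in R1 (log2 fold change -1.84 ± 0.13), and the other (MtrunA17_Chr1g0165001) had 0.341 and 0.883 CPM in R5 and 1.87 and 2.53 CPM in R1, a call that DESeq2 and each of the 4 fits without 1 R5 or R1 library did not make. In the lists of 4 DNA replication genes and 4 histone genes, 0 were called in edgeR or DESeq2. At an unadjusted p under 0.05, 2 DNA replication genes and 0 histone genes were lower, 1 of them also by the adjusted p alone in edgeR. Of 24 kinesin and tubulin genes, 1 rose, a kinesin (MtrunA17_Chr7g0238581; 6.81 and 5.67 CPM in R5, 1.18 and 1.69 CPM in R1), and none fell. Ribosomal protein genes shifted together by a small amount. Of 125 tested, 119 had a log2 fold change below 0, with a median of -0.51, but only 2 fell by more than 2-fold and 1 rose. With the adjusted p alone, 61 were lower and 3 higher, against 16.8% and 7.44% of the annotated genes. Their summed level was 27150 and 24810 CPM in R5 and 38610 and 35310 CPM in R1, which did not overlap. Those called lower encoded the proteins S21e (MtrunA17_Chr7g0246911; 17.2 and 14.2 CPM in R5, 45.2 and 29.3 CPM in R1) and S17e (MtrunA17_Chr8g0375961; 197 and 155 CPM in R5, 437 and 304 CPM in R1). The call of S21e was lost without R1 replicate 1, and that of S17e without R5 replicate 2 or R1 replicate 1 and under library totals.

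Of 8 tested genes tied to gibberellin, 4 rose and 1 fell, with a list median of 1.36 (log2). A gibberellin 2-beta-dioxygenase (MtrunA17_Chr1g0194321), which inactivates the hormone, had 32.1 and 35.2 CPM in R5 and 8.55 and 13.4 CPM in R1 (1.61 ± 0.26). Also, 3 gibberellin-regulated peptide genes rose, of which MtrunA17_Chr1g0152851 had 42.7 and 48 CPM in R5 and 14.5 and 18 CPM in R1 (1.48 ± 0.19). MtrunA17_Chr7g0256821 had 2.88 and 2.61 CPM in R5 and 0.407 and 0.804 CPM in R1, and MtrunA17_Chr1g0156601 had 2.8 and 2.1 CPM in R5 and 0.285 and 0.536 CPM in R1, a call lost without R5 replicate 1 or R1 replicate 1. The most abundant peptide gene fell, and with it the sum of the list, at 1159 and 1324 CPM in R5 and 3277 and 2393 CPM in R1. This gene, *MtGASA21* (MtrunA17_Chr7g0217311), had 1042 and 1198 CPM in R5 and 3223 and 2333 CPM in R1 (-1.31 ± 0.19), and it lost more CPM than any other gene called lower.

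Auxin genes fell in 3 of 12 cases and rose in none, with a list median of -0.39 (log2). They were 2 small auxin-up RNA genes, early response genes of the hormone (MtrunA17_Chr1g0147571; 3.18 and 3.64 CPM in R5, 11.2 and 8.81 CPM in R1, and MtrunA17_Chr7g0264551; 1.55 and 1.88 CPM in R5, 6.47 and 5.36 CPM in R1) and a GH3 gene (MtrunA17_Chr2g0318991; 15.3 and 19.8 CPM in R5, 45.1 and 36.3 CPM in R1), of a family that joins hormones to amino acids. In the cytokinin list, 1 of 6 genes fell, an A-type response regulator (MtrunA17_Chr7g0276361; 6.81 and 8.35 CPM in R5, 21.7 and 27.6 CPM in R1, -1.70 ± 0.18). A-type regulators damp cytokinin signalling. Of 4 ethylene synthesis genes, 0 were called in edgeR or DESeq2, with 1 lower and 1 higher at an unadjusted p under 0.05. The lower one also passed the adjusted p in edgeR.

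Carriers changed member by member. Of the sugar carriers, 2 SWEET genes, which export sugars from cells, fell, MtrunA17_Chr1g0159431 with 87.8 and 90.9 CPM in R5 and 278 and 221 CPM in R1 (log2 fold change -1.48 ± 0.20), and MtrunA17_Chr2g0278491 with 3.1 and 4.05 CPM in R5 and 15.8 and 11.9 CPM in R1 (-1.95 ± 0.37). A sugar or inositol carrier of the major facilitator type (MtrunA17_Chr5g0394341) rose, at 30.4 and 29 CPM in R5 and 4.76 and 4.63 CPM in R1 (2.66 ± 0.21), the one riser of 13 sugar carriers. Among 12 carriers of nitrate, ammonium, phosphate and sulfate, 2 rose and none fell, both of the family of proton-dependent nitrate and oligopeptide carriers. MtrunA17_Chr3g0133341 had 17.8 and 18.2 CPM in R5 and 4.64 and 5.71 CPM in R1 (1.80 ± 0.22), and MtrunA17_Chr8g0375321 had 9.35 and 11.6 CPM in R5 and 4.8 and 5.63 CPM in R1 (1.00 ± 0.24, a call lost without R5 replicate 2 or R1 replicate 1). One of 6 aquaporin genes (MtrunA17_Chr1g0188771) was called lower, at 0.0757 and 0.11 CPM in R5, 3 or fewer counts, and 0.733 and 0.574 CPM in R1, a call lost without R5 replicate 1 or R1 replicate 1. An ABC transporter gene annotated for D-allose (MtrunA17_Chr4g0003981), chosen after its values were seen, had 300 and 329 CPM in R5 and 40.4 and 51.2 CPM in R1 (2.78 ± 0.16).

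The largest rises among annotated genes of 10 CPM or more came from scattered families. An EamA domain gene (MtrunA17_Chr6g0483401), of a family of membrane carriers, had 28.4 and 29.5 CPM in R5 and 0.0407 and 0.0383 CPM in R1 (adjusted p = 8.67e-07, edgeR). A lyase gene (MtrunA17_Chr3g0105071) had 441 and 550 CPM in R5 and 18.5 and 31.7 CPM in R1 (log2 fold change 4.30 ± 0.26). A squalene monooxygenase (MtrunA17_Chr4g0049291), which makes the precursor of sterols and triterpenoid saponins, had 110 and 113 CPM in R5 and 5.05 and 7.05 CPM in R1 (4.20 ± 0.20). The groups lay far apart in each. A glycine rich protein gene (MtrunA17_Chr5g0438501) had 46.9 and 45.7 CPM in R5 and 2.77 and 4.33 CPM in R1 (3.70 ± 0.21), and a receptor-like kinase gene (MtrunA17_Chr2g0314911) had 21.8 and 25.8 CPM in R5 and 1.75 and 2.64 CPM in R1 (3.43 ± 0.24). Counts of the squalene monooxygenase, glycine rich protein and kinase genes were not whole in all 16 libraries. Without annotation, the largest rises were those of MtrunA17_Chr5g0408991, with 37.7 and 89.4 CPM in R5, at least 308-fold higher, and MtrunA17_Chr1g0195201, with 52.1 and 52.7 CPM in R5, at least 427-fold higher. Both had no count in R1, and the bounds are set against the floor of 3 counts in each R1 library.

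In absolute level, the genes that gained most were chosen after their values were seen. A primary-amine oxidase (MtrunA17_Chr4g0065981) had 7063 and 7200 CPM in R5 and 1240 and 1223 CPM in R1 (log2 fold change 2.53 ± 0.13, adjusted p = 1.53e-06, edgeR). Such oxidases act on putrescine and related amines and release hydrogen peroxide in the wall. A gene without annotation on chromosome 8 (MtrunA17_Chr8g0342951) had 6346 and 7012 CPM in R5 and 1274 and 1403 CPM in R1 (2.32 ± 0.16). Counts of both were not whole in 15 of 16 libraries, so reads were shared with similar transcripts.

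Flavonoids, which colour and defend roots and act as signals to rhizobia in legumes, had genes on both sides. Of 20 phenylpropanoid and flavonoid genes tested, 4 rose and 2 fell, with a list median of 0.60 (log2). The risers of 5 CPM or more were a chalcone isomerase (MtrunA17_Chr1g0213021; 80.7 and 102 CPM in R5, 15.5 and 18.2 CPM in R1, 2.44 ± 0.17), a 6'-deoxychalcone synthase (MtrunA17_Chr3g0121001; 180 and 180 CPM in R5, 55.1 and 61.4 CPM in R1, 1.63 ± 0.17) and a 2-hydroxyisoflavanone dehydratase (MtrunA17_Chr3g0095711; 8.78 and 10.6 CPM in R5, 2.81 and 3.25 CPM in R1, 1.68 ± 0.28). These enzymes close the flavonoid ring, form the chalcones typical of legumes and complete the isoflavone skeleton. The genes that fell were an isoflavone glucoside malonyltransferase (MtrunA17_Chr6g0454741; 5.45 and 5.15 CPM in R5, 11.1 and 11.4 CPM in R1) and a flavanone 3-dioxygenase (MtrunA17_Chr8g0345831; 0.151 and 0.184 CPM in R5, 1.34 and 1.07 CPM in R1). Another flavanone 3-dioxygenase (MtrunA17_Chr3g0126741) was called higher at 0.227 and 0.184 CPM in R5 with 0.0407 and 0 CPM in R1, a call that DESeq2 and each of the 4 fits without 1 R5 or R1 library did not make. An anthocyanidin synthase (MtrunA17_Chr5g0398291), outside that list and chosen after its values were seen, had 4.62 and 3.86 CPM in R5 and 0.407 and 0.613 CPM in R1 (3.04 ± 0.34).

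Cytochrome P450 genes, which oxidise hormones, lipids and defence compounds, rose in 3 of 19 cases and fell in 1. MtrunA17_Chr5g0431461 had 82.8 and 84.5 CPM in R5 and 8.99 and 10.5 CPM in R1 (log2 fold change 3.10 ± 0.16). *MtHPL* (MtrunA17_Chr2g0322321), a hydroperoxide lyase that splits oxidised fatty acids, had 9.5 and 10.1 CPM in R5 and 4.31 and 4.14 CPM in R1 (1.21 ± 0.16), and MtrunA17_Chr1g0184461 had 3.94 and 3.61 CPM in R5 and 1.43 and 1.03 CPM in R1. The gene that fell (MtrunA17_Chr4g0074581) had 49.9 and 51.3 CPM in R5 and 216 and 184 CPM in R1 (-1.98 ± 0.15). Glutathione transferases, which conjugate reactive compounds, rose in 2 of 12 cases and fell in none. MtrunA17_Chr1g0212301 had 2.23 and 3.75 CPM in R5 and 0.366 and 0.383 CPM in R1, and MtrunA17_Chr7g0240661 had 3.52 and 3.24 CPM in R5 and 1.1 and 0.651 CPM in R1. The first call was lost without R5 replicate 2, the second without R5 replicate 1, R5 replicate 2 or R1 replicate 2.

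Of 9 class III peroxidases, which use hydrogen peroxide to stiffen or loosen walls, 2 rose and 1 fell. MtrunA17_Chr5g0404721 had 23.2 and 22.2 CPM in R5 and 2.32 and 2.18 CPM in R1 (log2 fold change 3.33 ± 0.22), and MtrunA17_Chr1g0181511 had 4.66 and 5.26 CPM in R5 and 0.895 and 1.38 CPM in R1 (2.11 ± 0.29). The one that fell (MtrunA17_Chr1g0148021) had 6.62 and 7.32 CPM in R5 and 16.4 and 13.5 CPM in R1, a call that held only without R1 replicate 2. MtrunA17_Chr2g0292111 overlapped between the groups, at 25.6 and 26.2 CPM in R5 and 29.1 and 23.9 CPM in R1. The alcohol dehydrogenases of fermentation were not called. MtrunA17_Chr3g0125911 had 82 and 75.8 CPM in R5 and 55.4 and 68.4 CPM in R1, and MtrunA17_Chr3g0125961 had 94.3 and 80 CPM in R5 and 136 and 155 CPM in R1. Of 10 small heat shock protein genes, 1 rose (MtrunA17_Chr1g0150811; 6.28 and 6.07 CPM in R5, 2.93 and 3.02 CPM in R1), a call lost in each of the 4 fits without 1 R5 or R1 library.

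Few genes of photosynthesis were annotated, and those tested had a low summed level in these radicles. The lowest fitted change of the list, -4.90 (log2), was not called. Of 5 tested, 2 rose, a chlorophyll a-b binding protein gene (MtrunA17_Chr5g0448421; 9.69 and 7.1 CPM in R5, 0.244 and 0.728 CPM in R1, log2 fold change 4.08 ± 0.34) and a photosystem II gene (MtrunA17_Chr1g0157481; 2.65 and 2.35 CPM in R5, 0.814 and 1.49 CPM in R1, 1.11 ± 0.34), whose call was lost without R5 replicate 1, R5 replicate 2 or R1 replicate 1. Counts of the chlorophyll a-b binding protein gene were not whole in all 16 libraries. Of 79 genes encoded in the chloroplast, 4 rose (5.06%) and none fell, against 13.8% and 3.78% of all genes tested. Their sum was 618 and 568 CPM in R5 and 1313 and 410 CPM in R1, so that the R1 replicates differed from each other by more than R5 from either. Also, 2 homologues of cold-regulated proteins that in *Arabidopsis* act in the clock and in light signalling, chosen after their values were seen, rose. MtrunA17_Chr1g0153331 had 4.69 and 5.56 CPM in R5 and 0.163 and 0.153 CPM in R1 (4.97 ± 0.30), and MtrunA17_Chr6g0472331 had 2.99 and 2.25 CPM in R5 and 0.0814 and 0.153 CPM in R1 (4.41 ± 0.40).

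**Figure D4:**
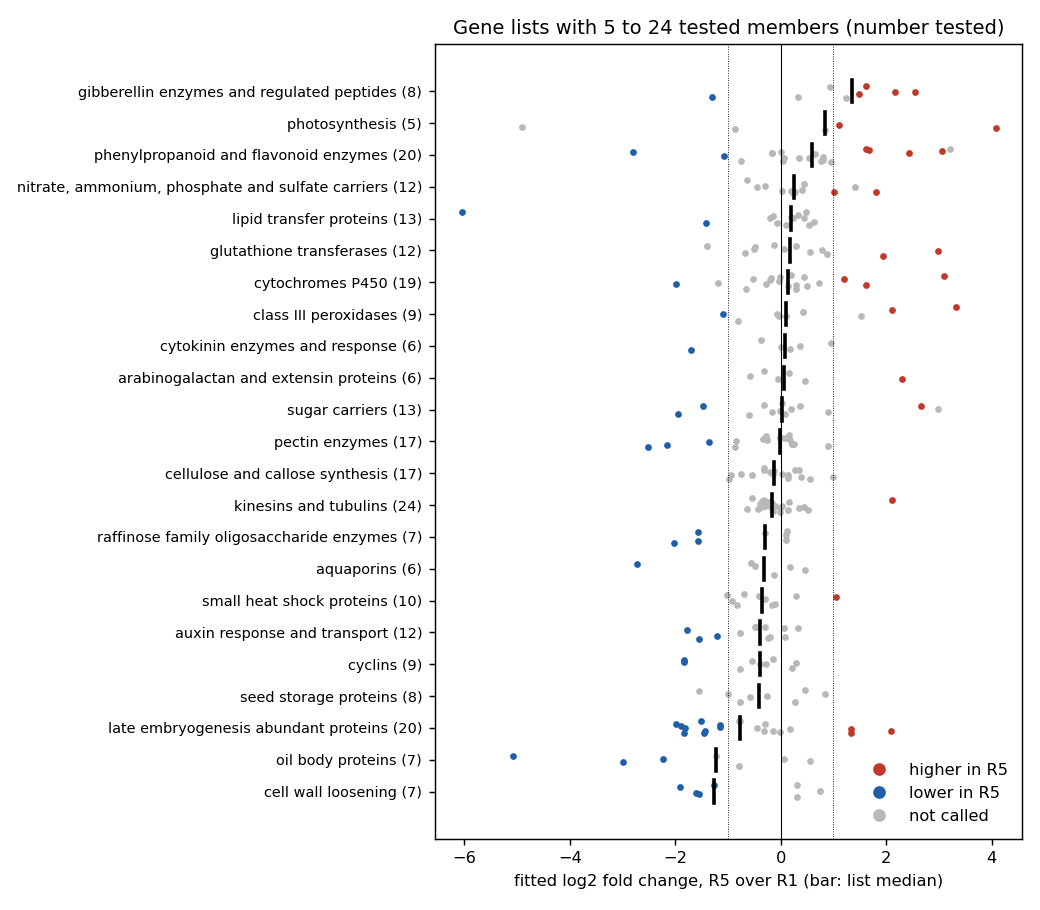
The fitted log2 fold change of R5 over R1 (horizontal axis) of each tested member of the gene lists with 5 to 24 tested members, 1 point per gene, coloured by call, with the list median as a black bar and the number tested in brackets. Medians run from -1.28 in the cell wall loosening list to 1.36 in the gibberellin list, and all called members of the cell wall loosening and pectin lists are lower in R5.

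The lists that the study had formed on these radicles were also counted. Its cluster 1, 948 genes grouped for high levels in R1P, had 915 tested members, of which 106 fell between R5 and R1 and 15 rose (11.6% and 1.64%). Its cluster 5, 103 genes grouped for low levels in R1P, had 102 tested members, of which 19 rose and 4 fell (18.6% and 3.92%). Of all annotated genes tested, 4.92% rose and 6.17% fell. Both clusters were drawn from the levels in R5 and R1 as well, so these counts describe the lists and are no evidence of their direction. Of 622 tested genes with chromatin more open in R1P than in R1 and R5, 94 fell (15.1%) and 91 rose (14.6%). The shares were 6.17% and 4.92% among the annotated genes, and 3.78% and 13.8% among all genes tested. The list median of -0.07 was that of all genes tested.

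Whether the same genes changed with length after PEG was asked in radicles that share no library with R5 and R1. Between R5P and R1P, 4560 genes were called (19.2%), 3652 higher (15.3%) and 908 lower (3.82%). Of the risers of R5, 1775 also rose in R5P, which is 54% of the R5 list and 48.6% of the R5P list, and 39 fell. Of the fallers, 223 also fell in R5P (24.8% of the R5 list and 24.6% of the R5P list), and 82 rose.

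The difference between the length effects was tested as an interaction. It was called in 2059 genes (8.65%), with the R5 over R1 change above that of R5P over R1P in 839 (3.53%) and below it in 1220 (5.13%). The balance of the directions was not stable. Without R1P replicate 1 it turned, with 757 genes above and 640 below, and likewise without R1P replicate 2 (729 above and 665 below), and RLE factors gave 980 above and 1054 below. Without R5 replicate 1 it was called in 1170 genes, and without R5 replicate 2 in 1225. The genes given next were mostly named for their change between R5 and R1, which is also part of the interaction. That choice favours a larger change without PEG, and the p-values do not allow for it. *MtABI3* fell under both conditions, with 16.9 and 14.1 CPM in R5P and 84.2 and 83.3 CPM in R1P (log2 fold change -2.43). Its fall was deeper without PEG (difference -2.66, adjusted p = 0.000221, edgeR). The stearoyl desaturase MtrunA17_Chr1g0159321 changed sign, with 72.3 and 59.4 CPM in R5P and 21.9 and 16.9 CPM in R1P, a rise of 1.76 on the log2 scale. The difference was -4.74 (adjusted p = 1.13e-05, edgeR). The Trihelix gene MtrunA17_Chr1g0179561 changed sign as well, with 104 and 47.3 CPM in R5P and 31.4 and 31 CPM in R1P (1.27, difference -3.69). Other genes differed in size. The glycine rich protein gene MtrunA17_Chr5g0438501 had 689 and 664 CPM in R5P and 609 and 703 CPM in R1P, and the cold-regulated homologue MtrunA17_Chr1g0153331 had 12.4 and 13.3 CPM in R5P and 12 and 11.4 CPM in R1P, so that neither was called after PEG. The P450 gene MtrunA17_Chr5g0431461 had 102 and 86.7 CPM in R5P and no count in R1P, and its rise was larger after PEG.

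**Figure D5:**
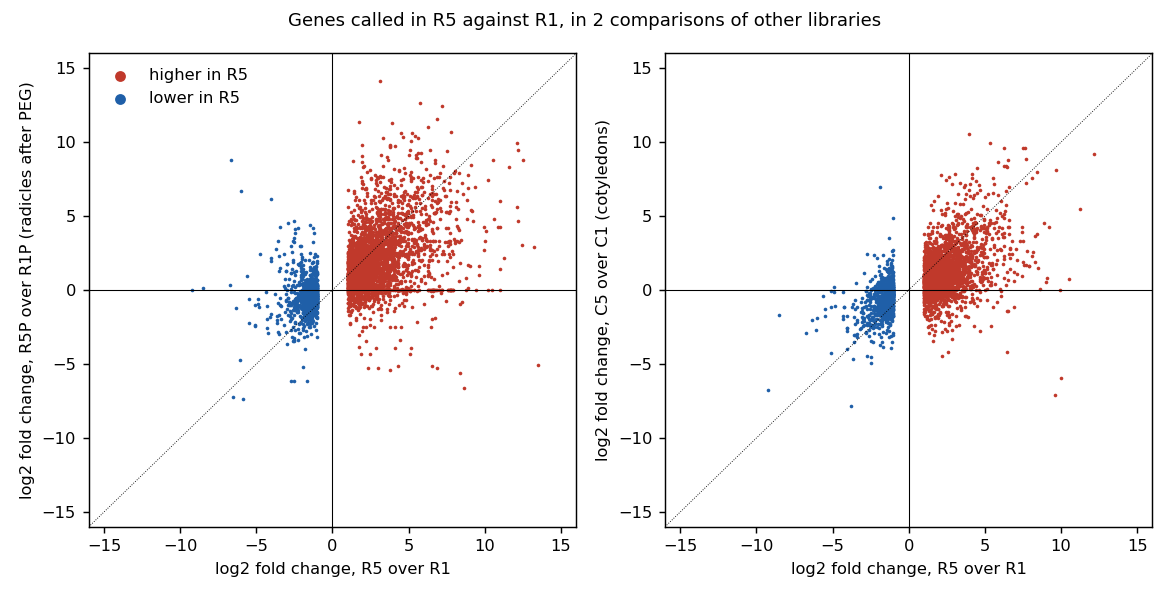
The log2 fold change of R5 over R1 (horizontal axes) of the genes called there, against that of R5P over R1P (left) and of C5 over C1 (right), 1 point per gene, with the line of equal change dotted. Most risers lie above 0 on both vertical axes, with medians of 1.57 at the left and 0.99 at the right, and the fallers scatter around medians of -0.51 and -0.55.

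The cotyledons of seeds at the same stages gave fewer calls. Between C5 and C1, 1988 of 23060 genes were called (8.62%), 1315 higher (5.7%) and 673 lower (2.92%). There were 916 calls without C5 replicate 1, 443 without C1 replicate 1 and 407 without C1 replicate 2. Of 2526 risers of R5 tested there, 702 rose in C5 (27.8% of the R5 list and 57.3% of the C5 list) and 41 fell. Of 822 fallers, 153 fell in C5, which is 18.6% of the R5 list, and 11 rose. In all 3 comparisons of 5 mm with 1 mm seeds, 408 genes rose and 52 fell. *MtABI3* fell in all of them, with 5.54 and 3.68 CPM in C5 and 87 and 91.9 CPM in C1 (log2 fold change -4.28).

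A difference between the length effects of radicles and cotyledons was called in 1389 of 25524 genes (5.44%), 941 in the direction of a higher radicle value (3.69%) and 448 lower (1.76%). Leaving out R5 replicate 1 or 2 gave 617 or 582 calls, R1 replicate 1 or 2 gave 579 or 762, and C1 replicate 1 or 2 gave 687 or 758. Here too, the genes given were mostly named for their change between R5 and R1, and the p-values do not allow for that choice. The AP2-EREBP gene MtrunA17_Chr1g0153151 fell in cotyledons, with 3.96 and 1.63 CPM in C5 and 16.3 and 12.2 CPM in C1 (log2 fold change -2.35, difference 4.10, adjusted p = 0.000402, edgeR). The dehydrin MtrunA17_Chr6g0484671 also rose in radicles and fell in cotyledons, at 9.34 and 6.49 CPM in C5 and 29.1 and 17.2 CPM in C1 (-1.55, difference 3.69). Anthocyanidin synthase (MtrunA17_Chr5g0398291) rose in both and more in cotyledons, at 38.3 and 25.1 CPM in C5 and 0.228 and 0.0384 CPM in C1 (7.83, difference -4.74). The polygalacturonase MtrunA17_Chr3g0087811 was not called in cotyledons, at 68.9 and 49.9 CPM in C5 and 64.2 and 83.5 CPM in C1, and its fall in radicles was the deeper (difference -2.16, adjusted p = 0.00423, edgeR). Squalene monooxygenase (MtrunA17_Chr4g0049291) rose in cotyledons too, with 65.4 and 72.3 CPM in C5 and 3.73 and 3.3 CPM in C1 (4.29), and no difference between the tissues was called (difference -0.03).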

How the data were processed

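RNA-Seq libraries of single-end reads of *Medicago truncatula* A17 (8 radicle and 8 cotyledon libraries, 2 biological replicates a group) were mapped by the authors to the Mtv5 transcriptome with Salmon version 1.2, and the deposited values are expected counts per gene (estimated counts, not scaled for depth or length). Salmon divides reads that fit several transcripts, and fractional values made up 15.3 to 21.6% of each library. Of all genes tested, 41.9% had a count that was not whole, which is said in place for some genes only. Others with such counts in all 16 libraries include *MtHPL*, the S17e gene, the pectinesterase MtrunA17_Chr3g0079381 and the alcohol dehydrogenases MtrunA17_Chr3g0125911 and MtrunA17_Chr3g0125961. Counts were rounded here. Groups came from the sample titles, and every column was mapped.

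Genes kept by filterByExpr were tested with edgeR version 4.0.16 (TMM, quasi-likelihood, Benjamini-Hochberg adjustment over all genes tested) in R version 4.3.3, in 1 model of the 8 radicle libraries (23793 genes), 1 of the 8 cotyledon libraries (23060) and 1 of all 16 (25524, for the difference between tissues). Calls needed an adjusted p below 0.05 with a change beyond 2-fold either way. Interactions were contrasts within these models. Scripts were first tested on simulated counts. With 2 replicates a group, an exact permutation test of a single value cannot go below p = 0.333 and was not used. P-values measure the spread between these samples. Bounds cover counting error only.

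The members and the gene lists were chosen with earlier results of these data known. Lists were keyword rules on annotations in the supplementary tables of the study, save that genes encoded in the chloroplast were taken by their identifiers. Those tables were held in part, so the clusters and regions counted are those held whole, and no list stood for genes of the glyoxylate cycle or nodulins among the tested. Of the gene identifiers, 0 matched the RefSeq table at hand, so no sequence or coordinate is given, and chromosomes are those of the identifiers. Named genes were, among calls at 10 CPM or more on average whose groups did not overlap, the 2 largest rises and falls of any annotation and the 8 of informative annotation. To these came up to 3 called members of each list at 5 CPM or more, up to 4 called transcription factors in each direction, and the genes that the study names in its text on radicles. All other genes were chosen after their values were seen, which is said in place for some of them only. They include further called list members, both under 5 CPM and above it, such as *MtGASA21* and the dehydrin HIRD11. Alternatives were library totals, RLE factors, DESeq2 version 1.42.0, no filter, the replicate number as a block, other thresholds, other libraries in the model and each library left out in turn. Those without an R5P, R1P, C5 or C1 library were added after the data were seen.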

Additional observations from a re-analysis of the deposited data

Results flagged for a closer look

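Of the 108 genes looked at, 59 had a difference between R5 and R1 that itself differed from the one after PEG or in cotyledons by the tests of interaction in edgeR, at an adjusted p of at most 0.0474 after PEG and 0.0428 between tissues. Of the 108, 101 had been called between R5 and R1, a change that is part of both tests. That choice favours a difference, so the counts below are descriptions of the genes picked. Values are differences of log2 fold changes, R5 over R1 minus R5P over R1P, or minus C5 over C1, so that a negative value means a lower radicle change without PEG or lower than in cotyledons.

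After PEG, 48 genes differed, 28 with a negative and 20 with a positive value, where 8.65% of all genes tested differed. Among regulators, the value was -2.66 for *MtABI3* (MtrunA17_Chr7g0237841), -1.81 for *MtABI4* (MtrunA17_Chr5g0437371), -3.69 for the Trihelix gene MtrunA17_Chr1g0179561, -2.89 for the MYB-HB-like gene MtrunA17_Chr1g0181771, -2.25 for the AP2-EREBP gene MtrunA17_Chr1g0195151 and 1.51 for the WD40-like gene MtrunA17_Chr4g0034121. Among hormone genes it was -1.89 for the abscisic acid 8'-hydroxylase MtrunA17_Chr8g0369791, -1.67 and -2.48 for the auxin-up RNAs MtrunA17_Chr1g0147571 and MtrunA17_Chr7g0264551, -1.35 for the response regulator MtrunA17_Chr7g0276361, and -4.61 and 2.05 for the gibberellin-regulated genes MtrunA17_Chr1g0152851 and MtrunA17_Chr7g0256821. Among seed protein genes it was -1.32, -2.01 and 1.57 for the dehydrins MtrunA17_Chr8g0392291, MtrunA17_Chr7g0253841 and MtrunA17_Chr6g0484671, -1.18 and 1.06 for the LEA genes MtrunA17_Chr1g0185421 and MtrunA17_Chr4g0067471, -1.22 and 1.85 for the oleosins MtrunA17_Chr7g0227501 and MtrunA17_Chr6g0449621, and -2.33 for the small heat shock gene MtrunA17_Chr1g0150811.

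Wall and redox genes gave -1.84 and -1.78 for the xyloglucan transferases MtrunA17_Chr4g0072641 and MtrunA17_Chr4g0072671, -1.34 for the laccase MtrunA17_Chr2g0322441, -3.18, -1.56 and -2.91 for the peroxidases MtrunA17_Chr1g0181511, MtrunA17_Chr2g0292111 and MtrunA17_Chr5g0404721, and -4.41 and -3.19 for the alcohol dehydrogenases MtrunA17_Chr3g0125911 and MtrunA17_Chr3g0125961. Metabolic genes gave -4.74 for the stearoyl desaturase MtrunA17_Chr1g0159321, 2.53 for squalene monooxygenase (MtrunA17_Chr4g0049291), 2.16 for anthocyanidin synthase (MtrunA17_Chr5g0398291), 1.60 and 2.21 for the P450 genes MtrunA17_Chr1g0184461 and MtrunA17_Chr2g0322321, and -11.00 for the P450 gene MtrunA17_Chr5g0431461, which had no count in R1P. Other genes gave 4.83 and 4.42 for the cold-regulated homologues MtrunA17_Chr1g0153331 and MtrunA17_Chr6g0472331, 3.66 for the glycine rich protein MtrunA17_Chr5g0438501, 2.73 for the chlorophyll a-b binding protein MtrunA17_Chr5g0448421, 2.27 for the kinesin MtrunA17_Chr7g0238581, 1.91 for the kinase MtrunA17_Chr2g0314911, 1.66 for the sugar carrier MtrunA17_Chr5g0394341 and 1.05 for the ABC transporter MtrunA17_Chr4g0003981. The value was -1.65 for the cyclin MtrunA17_Chr3g0134261 and -1.34 for the ATPase MtrunA17_Chr8g0387641. Genes without annotation gave 1.08 for MtrunA17_Chr8g0342951, -1.72 for MtrunA17_Chr5g0406631, 10.37 for MtrunA17_Chr1g0195201 and 18.61 for MtrunA17_Chr5g0408991. The last 2, and that of -11.00, are fitted against groups without counts and are no measure of size.

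Between tissues, 24 genes differed, 15 with a positive and 9 with a negative value, where 5.44% of all genes tested differed. Positive values were 4.10 for the AP2-EREBP gene MtrunA17_Chr1g0153151, 4.22 for the WD40-like gene MtrunA17_Chr4g0034121, 3.17 for the MYB-HB-like gene MtrunA17_Chr7g0228891, 3.69 for the dehydrin MtrunA17_Chr6g0484671 and 1.59 for the small heat shock gene MtrunA17_Chr1g0150811. They were 2.19 for chalcone isomerase (MtrunA17_Chr1g0213021), 1.35 for the deoxychalcone synthase MtrunA17_Chr3g0121001, 2.23 and 3.45 for the P450 genes MtrunA17_Chr1g0184461 and MtrunA17_Chr5g0431461, and 1.18, 1.60 and 2.22 for the carriers MtrunA17_Chr3g0133341, MtrunA17_Chr8g0375321 and MtrunA17_Chr5g0394341. The remaining ones were 2.78 for MtrunA17_Chr1g0153331, 1.65 for MtrunA17_Chr5g0438501 and 2.31 for MtrunA17_Chr5g0448421. Negative values were -2.41 for the xyloglucan transferase MtrunA17_Chr2g0323161, -2.67 for the pectinesterase MtrunA17_Chr3g0079381, -2.16 for the polygalacturonase MtrunA17_Chr3g0087811, -2.82 for the peroxidase MtrunA17_Chr2g0292111 and -2.30 for the cyclin MtrunA17_Chr3g0134261. They were -1.82 for the MYB-HB-like gene MtrunA17_Chr1g0181771, -1.25 for the P450 gene MtrunA17_Chr4g0074581, -4.74 for anthocyanidin synthase (MtrunA17_Chr5g0398291) and -1.99 for the malonyltransferase MtrunA17_Chr6g0454741.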

How the results depend on the processing

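The counts of genes called between R5 and R1, 4184 in all, were 3911 with DESeq2, 4168 with RLE factors, 4206 with library totals, 4214 without a filter, 4166 with the replicate number as a block, 4709 with only the 4 libraries and 3571 with all 16, where 584 genes were lower. No called gene was called in the other direction in any of these. The share of rises lay between 73.3 and 88.1% except with the adjusted p alone (7865 genes, 3560 of them lower, 54.7% higher). The TREAT test of a change beyond 2-fold called 1974 genes, 1740 higher and 234 lower. Leaving out 1 R5 or R1 library gave 2918 to 3435 calls, 2257 to 2518 higher and 653 to 917 lower. Between R5P and R1P, the adjusted p alone gave 7976, TREAT 2260 and leaving out 1 library 3786 to 5210, and library totals moved the median log2 fold change over the tested genes to 0.16 (0.05 with TMM). Between C5 and C1, TREAT gave 543, the block 1260 and leaving out 1 library 407 to 1341. For the difference with PEG, TREAT gave 662 and leaving out 1 library 1170 to 2739, with 40.3 to 54.2% of the values positive. For the difference between tissues, DESeq2 gave 2100, TREAT 309 and leaving out 1 library 579 to 1434. Of the 929 tested members of the annotation lists, 124 were called, and the adjusted p alone gave 276, TREAT 59, and 1 library left out 105 to 127. The cause of these shifts was not tested.

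Of 101 named genes called, 79 kept their call whichever R5 or R1 library was left out, and TREAT kept all but 36. The peroxidase MtrunA17_Chr2g0292111, not called at -0.03, was at 0.058 with library totals, 0.048 with the 4 libraries alone and 0.033 with all 16, and between -0.17 and 0.108 (without R1 replicate 1) with 1 library left out. The replicate numbers were not shown to pair the samples, since the deviations of same-numbered R5 and R1 libraries correlated at 0.118 with only 2 numbers, and no named gene lost its call under the block. At 3 counts the floor was 0.11 to 0.122 CPM, and smaller levels were not detectable.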

Other observations

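Some genes called in the same direction lay beside each other in the order of their identifiers. Of 3283 risers with a next tested identifier on the same chromosome, 710 had a next one that also rose (21.6%, against 13.8% of all genes tested), and of 896 fallers 84 had a next one that also fell (9.38%, against 3.78%). These shares are descriptions, since neighbours can share reads or be copies of one another. There were 45 runs of 4 or more successive risers, with 208 genes in all, and the longest run of fallers had 4 genes. A run of 11 genes without annotation on chromosome 8, MtrunA17_Chr8g0342881 to MtrunA17_Chr8g0343031, summed to 11730 and 12850 CPM in R5 and 2079 and 2200 CPM in R1. It includes MtrunA17_Chr8g0342951, the gene with the second largest gain. All 11 had counts that were not whole, 8 also rose in R5P and 5 in C5. A second run of 11, MtrunA17_Chr4g0014541 to MtrunA17_Chr4g0014691, also without annotation, summed to 874 and 941 CPM in R5 and 59.4 and 73.2 CPM in R1, and 9 of its genes also rose in R5P. A run of 6 on chromosome 8, MtrunA17_Chr8g0343921 to MtrunA17_Chr8g0344071, held germin annotations, germins being wall proteins that bind manganese, and summed to 320 and 301 CPM in R5 and 59.4 and 53.4 CPM in R1, with counts not whole in 2 of its genes. The part of shared reads in these runs was not tested.

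Of the 562 risers with at most 3 counts in each R1 library, 379 were at that level in R1P as well and 140 in R5P. In cotyledons, 234 were at that level in C5 and 351 in C1. Across all 4 cotyledon groups, with and without PEG, 181 stayed at it. Of these, 70 were called higher in R5P than in R1P, a call made for 15.3% of all genes tested. The share of all tested genes at that level was not counted in any group, so the counts at that level are descriptions only. Most of the 562 were low in R5 too, with a median of 0.856 CPM, and 19 reached 10 CPM, up to 140 CPM.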
